A study of Mus musculus with 12 samples.

Results

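The cytosolic ribosomal protein genes were taken from a table of FPKM values (fragments per kilobase of transcript, scaled to library size) from mouse embryonic stem cells (ESCs), which are pluripotent cells in culture. A gene was a member if its symbol was Rpl or Rps with a number and at most 1 of the letters a, x, y or l, or if it was Rpsa, Rplp0, Rplp1 or Rplp2. This rule took 82 of 23503 genes, of which 32 belong to the small ribosomal subunit and 50 to the large one. Of the 82, 76 are the standard genes and 6 are named as paralogs or gene copies (Rpl10l, Rpl39l, Rpl3l, Rps27l, Rps4l and Rpl32l). The rule used names only and no measured value, but it was written with earlier results of these data known.

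RNA-seq covered 3 groups with 4 libraries each, 12 in all. The first was wild-type ESCs kept in 2i, a serum-free medium whose inhibitors are CHIR99021 (3 µM, against GSK3) and PD0325901 (1 µM, against MEK). Knockout ESCs lacked Tfcp2l1, a transcription factor of naive pluripotent cells, according to their labels, and were grown in that same 2i medium. A further set of wild-type ESCs was grown in medium holding 15% fetal bovine serum (FBS) instead. LIF, a cytokine that supports self-renewal, was at 1000 units/mL in all 3 groups. The labels do not say whether the knockout is 1 clone, nor whether a group's 4 libraries stem from different cultures. The p-values therefore set differences between groups only against the spread among these libraries within groups, and that spread may be technical.

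Ribosomal proteins assemble with ribosomal RNA into the small subunit, which reads the messenger RNA, and the large subunit, which joins amino acids. Their messenger RNAs are among the most abundant of growing cells, and many begin with a run of pyrimidines (a terminal oligopyrimidine or TOP start) through which mTOR signalling and the protein Larp1 set their translation. Most members are present in the genome together with many processed pseudogenes. A few have intact paralogs with restricted expression, such as Rpl10l and Rpl39l, which are best known from male germ cells, and Rpl3l, which is known from heart and skeletal muscle.

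Summed FPKM per library ran from 347772 to 358340, and the number of reads behind them is unknown. Summed over 6 ESC markers, levels were 1800 to 1970 FPKM in wild-type 2i cells, 1480 to 1580 in the knockout and 1570 to 1770 in FBS. By limma, as for the members below, 4 of the 6 were lower in the knockout, and 4 were higher and 1 lower in 2i than in FBS. Summed over 20 fibroblast markers, levels were 676 to 854 FPKM in wild-type 2i cells, 786 to 1240 in the knockout and 270 to 339 in FBS, and of the 19 tested 16 were higher in the knockout, and 12 were higher and 3 lower in 2i than in FBS. Among all genes tested, 24.0% were higher and 21.4% lower in the knockout, and 37.1% were higher and 35.3% lower in 2i. Sums over 10 trophoblast markers were 41.0 to 63.1 FPKM, 63.4 to 74.0 and 261.0 to 338.0 in the 3 groups, and of 9 tested 4 were higher and 2 lower in the knockout and 8 were lower in 2i. Sums over 8 neural markers were 9.93 to 25.5, 26.1 to 33.0 and 36.5 to 60.3 FPKM, and the 3 tested were higher in the knockout and lower in 2i than in FBS. Sums over 12 endoderm markers were 406.0 to 514.0, 347.0 to 485.0 and 170.0 to 211.0 FPKM, and of 6 tested 3 were higher and 1 lower in the knockout and 1 was higher and 3 lower in 2i. The part that other cells may have in the changes below was not tested, and in bulk RNA fewer cells of a type cannot be told apart from less RNA per cell. Tfcp2l1 itself was at 112.3 to 143.2 FPKM in wild-type 2i cells, 72.01 to 84.66 in the knockout and 25.8 to 37.09 in FBS. These values cover the whole transcript, so they do not check the knockout label.

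Sequence bears on the values in more than one way. One is the start of the transcript. Of the 82 members, 61 had an entry among RefSeq promoters (GRCm38.p6), with 73 annotated starts. A run of at least 5 pyrimidines (C or T, on the gene's strand) that spans the start was present at 21 of the 73 (28.8%), against 10.1% of 32778 other promoters. A C at the start followed by 4 pyrimidines was present at 14 of the 73 (19.2%), against 2.47% of the others. The windows below hold 15 bases before the start and 15 from it, with the run in capitals. They show 3 standard members and the copy Rpl32l, which have such a run, and 2 paralogs that have none at their annotated start. They are examples only. Of the 61 members, 21 have a start in such a run, and Rpl10, the partner of Rpl10l, has none. The windows lie at chr9:120571502-120571531 (+) for Rpl14, chr2:180257364-180257393 (+) for Rps21, chr3:90213634-90213663 (-) for Rps27, chr10:20208424-20208453 (+) for Rpl32l, chr12:66284387-66284416 (-) for Rpl10l and chr16:10170213-10170242 (+) for Rpl39l.
Rpl14: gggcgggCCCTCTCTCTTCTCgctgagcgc
Rps21: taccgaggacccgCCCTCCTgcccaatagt
Rps27: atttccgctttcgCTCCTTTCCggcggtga
Rpl32l: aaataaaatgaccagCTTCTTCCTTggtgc
Rpl10l: tttggcctccattttgcggctggcggtggg
Rpl39l: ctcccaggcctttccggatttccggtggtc
A match is only a description of these letters at an annotated start.

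Another is the coding sequence of a paralog beside that of its partner, since reads can be told apart only where the copies differ. Rpl39l and Rpl39 both have 156 coding bases in GENCODE vM21, differ at 23 of them and are 85.3% identical. The differing bases are in capitals.
Rpl39l: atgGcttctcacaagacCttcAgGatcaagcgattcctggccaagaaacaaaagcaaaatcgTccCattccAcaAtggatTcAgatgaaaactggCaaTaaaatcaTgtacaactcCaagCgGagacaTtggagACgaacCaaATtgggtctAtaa
Rpl39: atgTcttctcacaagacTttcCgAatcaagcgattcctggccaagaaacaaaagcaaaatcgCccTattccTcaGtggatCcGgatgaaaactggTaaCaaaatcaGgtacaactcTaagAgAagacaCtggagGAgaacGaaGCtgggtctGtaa
The longest stretch they share is 38 bases. Rpl10l and Rpl10 differ at 98 of 645 coding bases and share no stretch over 23 bases. Rps27l and Rps27 differ at 61 of 255 and share at most 11 in a row. Rpl32l and Rpl32 share a stretch of 94 bases. Of all 50-base stretches of the coding sequence, none of Rpl39l or Rpl3l, 12.4% of Rpl10l and 49.0% of Rps27l also occur in transcripts of other genes. For Rps4l and Rpl32l, whose GENCODE transcripts have no annotated coding part, the whole transcript was used. There the values were 14.9% and 35.4%.

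The members together held 8.45% ± 0.249 of all FPKM in wild-type 2i cells, 8.31% ± 0.123 in the knockout and 8.005% ± 0.244 in FBS (SD, n = 4). In wild-type 2i cells the 4 libraries stood at 8.60, 8.49, 8.63 and 8.09%. The knockout libraries stood at 8.44, 8.19, 8.38 and 8.21%, and those in FBS at 7.85, 7.84, 8.36 and 7.96%. Replicate 4 of wild-type 2i cells was the lowest of its group and replicate 3 in FBS the highest of its own, and all 3 groups overlapped. The small subunit took 4.26% ± 0.148, 4.25% ± 0.0526 and 4.03% ± 0.113 in the order above, and the large subunit 4.19% ± 0.102, 4.06% ± 0.0736 and 3.97% ± 0.130. No test was made of these sums. As FPKM are divided by transcript length, the shares are of transcripts, not of reads.

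**Figure D1:**
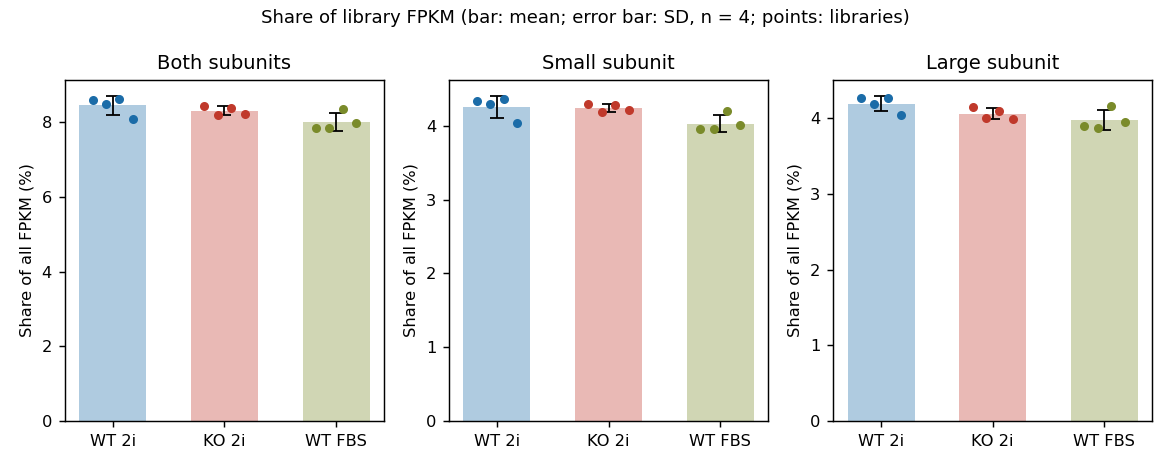
Share of the FPKM of a library held by all members, by small-subunit members and by large-subunit members, in percent, for wild-type 2i cells, knockout 2i cells and wild-type FBS cells. Bars are means, error bars SD (n = 4) and points libraries. The points of the 3 groups overlap for all members, with means of 8.45, 8.31 and 8.005%.

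Within the ribosome, whose proteins are mostly present in equal numbers, transcript levels were far from equal. They spanned 1290-fold from Rpl3l to Rpl41 in wild-type 2i cells, 1330-fold in the knockout and 2580-fold in FBS, with medians of 178.2, 179.9 and 168.3 FPKM. The low end of these spans is a paralog and not a standard member, with Rpl3l at 2.017, 1.803 and 0.947 FPKM in that order. Rpl41, a very small basic protein of the large subunit, was highest at 2602 ± 63.3 FPKM in wild-type 2i cells (SD, n = 4), followed by Rpl8, near the peptidyl transferase centre, at 2362 ± 68.1. The 5 highest members together took 32.9% ± 0.303, 33.2% ± 0.205 and 34.2% ± 0.205 of the members' FPKM in wild-type 2i cells, the knockout and FBS. The lowest standard members were Rps27 at 8.71 ± 1.24, Rps29 at 6.05 ± 0.65 and Rps12 at 4.88 ± 0.646 FPKM in wild-type 2i cells. The rank order barely differed between groups, with Spearman's rho across the 82 genes of 0.991 between wild type and knockout in 2i and 0.985 between 2i and FBS in wild type. Genes are not independent replicates, so no p is given. The median coefficient of variation among the 4 libraries of a group was 4.79, 3.84 and 5.29%, and Rpl39l had the highest in both wild-type groups, at 44.7% in 2i and 53.0% in FBS.

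**Figure D2:**
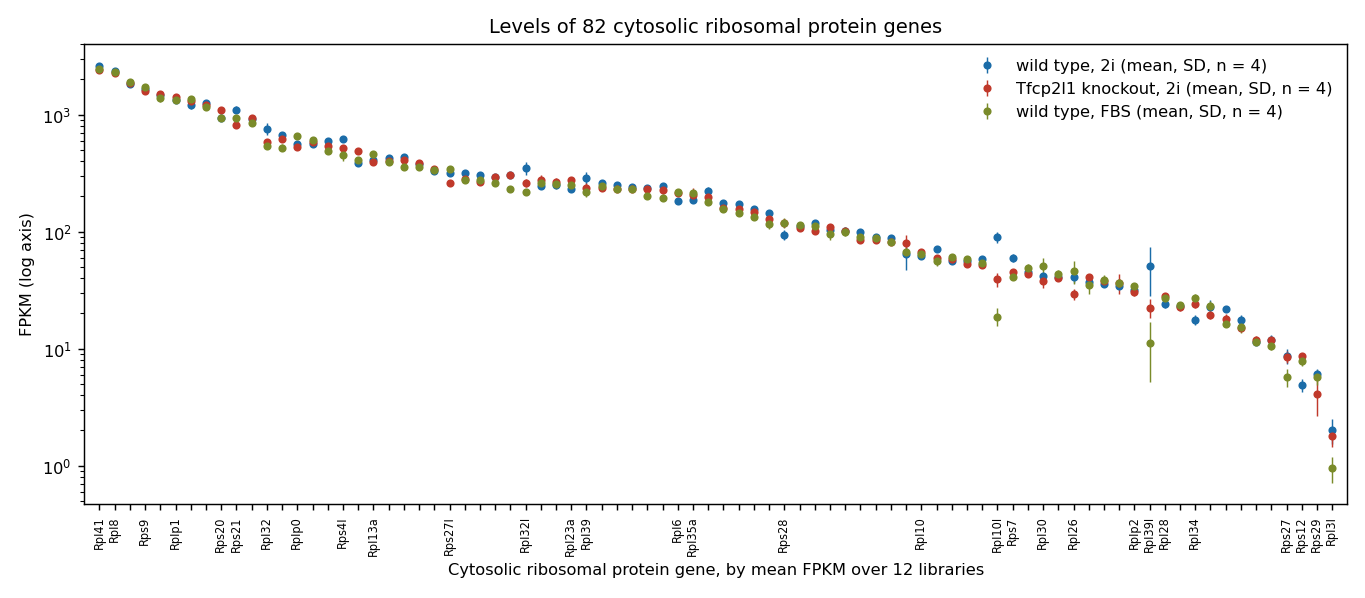
FPKM of the 82 genes on a log axis, ordered by their mean over 12 libraries, with points for group means, bars for SD (n = 4) and some genes labelled. The 3 groups lie close together along the order from Rpl41 to Rpl3l, except at a few genes such as Rpl10l and Rpl39l.

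Low levels went with sequence shared with other genes. The 16 members with under 50% of their 50-base stretches in transcripts of other genes had a median of 584.2 FPKM. The 38 with 50% to under 100% had 230.0 FPKM, and the 28 with 100% had 74.24 FPKM. Across members, Spearman's rho of level with shared stretches was -0.426 (n = 82), and -0.527 without the 6 paralogs (n = 76). The points share their libraries, and no p is given. Rps12, Rps27 and Rps29 were at 100%, shared with 25, 9 and 7 other genes, while Rpl8 was at 8.69%. Rpl41, also at 100%, was the highest member all the same. Outside the rule, named pseudogenes and retrocopies held 0.675, 0.680 and 0.642% of all FPKM in the 3 groups. In wild-type 2i cells Rplp2-ps1 was at 1074 ± 30.4 FPKM and Rplp2, a protein of the acidic stalk, at 31.5 ± 1.97. The sum does not show how single copies differ. The copy Rps27rt was at 6.34 ± 3.52 FPKM in wild-type 2i cells, 24.1 ± 5.96 in the knockout and 23.5 ± 4.74 in FBS. The levels of members that share reads with such copies are therefore uncertain, as the treatment of reads that map to several places is not stated in the labels. This split was chosen after seeing the data.

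**Figure D3:**
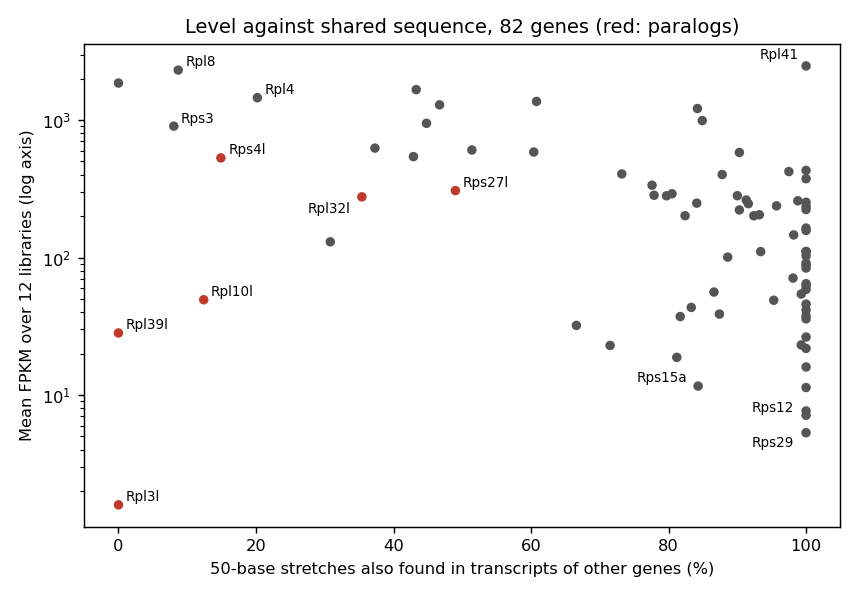
Mean FPKM over 12 libraries (log axis) of each of the 82 genes against the percentage of its 50-base stretches that also occur in transcripts of other genes. Stretches are of the coding sequence, or of the whole transcript for Rps4l and Rpl32l, and the 6 paralogs are in red. Rpl8 lies high at under 10%, and the 28 genes at 100% have a median of 74.24 FPKM.

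The first comparison the study names is knockout against wild-type 2i cells, made to find transcripts that Tfcp2l1 regulates. Most members differed little. All 82 passed the filter of at least 1 FPKM in at least 4 libraries, and 69 of them differed by less than 0.3 on the log2(FPKM + 1) scale, which understates changes of low genes. By limma with Benjamini-Hochberg adjustment over 12329 genes and a threshold of 0.05, 9 members were higher in the knockout and 25 lower, and 48 did not pass. These 34 are 41.5% of the members, where 45.3% of all genes tested were called. By direction, 11% of members were higher and 30.5% lower, against 24.0% and 21.4% of all genes. Among all 599 genes with a mean of at least 100 FPKM, 21.2% were higher and 29.9% lower. The median member change was -0.062 with an interquartile range of 0.218, beside 0.012 and 0.346 over all genes. Rpl10l and Rpl39l changed by 1 or more, as did 2.9% of all genes tested, and among the 76 standard members the changes ran from -0.49 to 0.72. Of the 32 small-subunit members 5 were higher and 10 lower, and of the 50 large-subunit members 4 were higher and 15 lower. The groups did not overlap for 9 members that were higher (all genes, 23.7%) and 24 that were lower (all genes, 20.4%).

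In the small subunit, Rps12 rose most. It was at 4.59, 5.17, 5.61 and 4.14 FPKM in wild-type 2i cells and at 8.52, 9.41, 7.94 and 8.72 in the knockout (log2 change 0.72, SE 0.09, limma adjusted p = 3.55e-05), so every knockout library lay above every wild-type one. Rps28 rose by 0.33 on the log2 scale and Rps20 by 0.22, from 945.3 ± 61.9 to 1101 ± 43.1 FPKM. The Rps20 call was lost with quantile normalization (0.12, adjusted p = 0.0846). Rps20 is a protein of the small subunit's head, and both Rps12 and Rps28 lay at 100% shared sequence.

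Among the small-subunit genes that fell, Rps21 was at 1134, 1170, 1109 and 993.6 FPKM in wild-type 2i cells and at 804.9, 800.5, 824.6 and 820.6 in the knockout (log2 change -0.44, SE 0.05, adjusted p = 2.28e-05). The 4 knockout libraries lay within a narrow band below all wild-type ones. Rps7, which also takes part in small-subunit maturation, fell from 60.1 ± 4.65 to 45.4 ± 1.61 FPKM (log2 change -0.39, adjusted p = 0.000105). Rps29 was called at -0.49 (adjusted p = 0.0244) from 6.05 ± 0.65 and 4.14 ± 1.48 FPKM. Knockout replicate 3 stood at 6.27 FPKM, within the wild-type range, and the call was lost on leaving out any of wild-type 2i replicates 1, 2 and 4 or knockout replicates 2 and 4 (adjusted p from 0.053 to 0.0746).

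In the large subunit, Rpl34 rose from 17.32, 16.29, 20.19 and 17.25 FPKM to 25.7, 22.31, 25.88 and 22.63 (log2 change 0.42, SE 0.08, adjusted p = 0.000944), with no overlap. Rpl23a, beside the exit of the nascent chain tunnel, and Rpl6 both rose by 0.25, Rpl23a from 231.0 ± 10.6 to 274.6 ± 7.29 FPKM and Rpl6 from 181.4 ± 4.58 to 216.0 ± 12.4. Rpl28 rose by 0.20 (adjusted p = 0.022), a call lost without knockout replicate 1 (adjusted p = 0.0603) or 4 (0.0637). Rpl26 fell from 45.11, 38.27, 36.04 and 45.33 FPKM to 25.16, 29.36, 30.85 and 32.59 (log2 change -0.47, SE 0.13, adjusted p = 0.0122). Shared sequence was 100% in Rpl23a and Rpl28, 93.2% in Rpl6, 87.4% in Rpl26 and 71.5% in Rpl34. Rpl41 was called lower at -0.12 (adjusted p = 0.0215), but with quantile normalization its difference was 0.00, and without knockout replicate 2 or 4 the adjusted p was 0.0623 or 0.051. Rpl35a did not pass (0.14, adjusted p = 0.185), but it did without knockout replicate 4 (0.24, adjusted p = 0.00175) and with its highest transcript entry alone (0.47, adjusted p = 0.0234). The stalk genes Rplp0, Rplp1 and Rplp2, whose products bind the translation factors, did not pass, with differences of -0.08, 0.07 and -0.03.

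Rpl32 and its copy Rpl32l fell side by side. Rpl32 was at 783.0, 853.4, 630.6 and 763.9 FPKM in wild-type 2i cells and at 590.7, 612.5, 570.5 and 553.4 in the knockout (log2 change -0.37, SE 0.07, adjusted p = 0.00162). Rpl32l was at 370.9, 386.0, 285.1 and 355.0 FPKM and then at 272.9, 287.0, 242.7 and 250.5 (log2 change -0.40, SE 0.08, adjusted p = 0.00228). Rpl32l stood at 45.2 to 47.4% of Rpl32 in wild-type 2i cells and at 42.5 to 46.9% in the knockout. As they have a stretch of 94 bases in common, they may share reads, which was not tested. In both genes replicate 3 was the lowest wild-type library, and for Rpl32l it lay below the highest knockout library. Rpl32 lies on chromosome 6, whose 579 tested genes shifted together between libraries, with a median offset of -0.11 in that same replicate and of 0.211 in replicate 4. The median change of chromosome 6 genes was -0.145 in this comparison, and its part in the fall of Rpl32 was not tested. Rpl32l lies on chromosome 10 in mm9, at chr10:19928245-19928836.

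**Figure D4:**
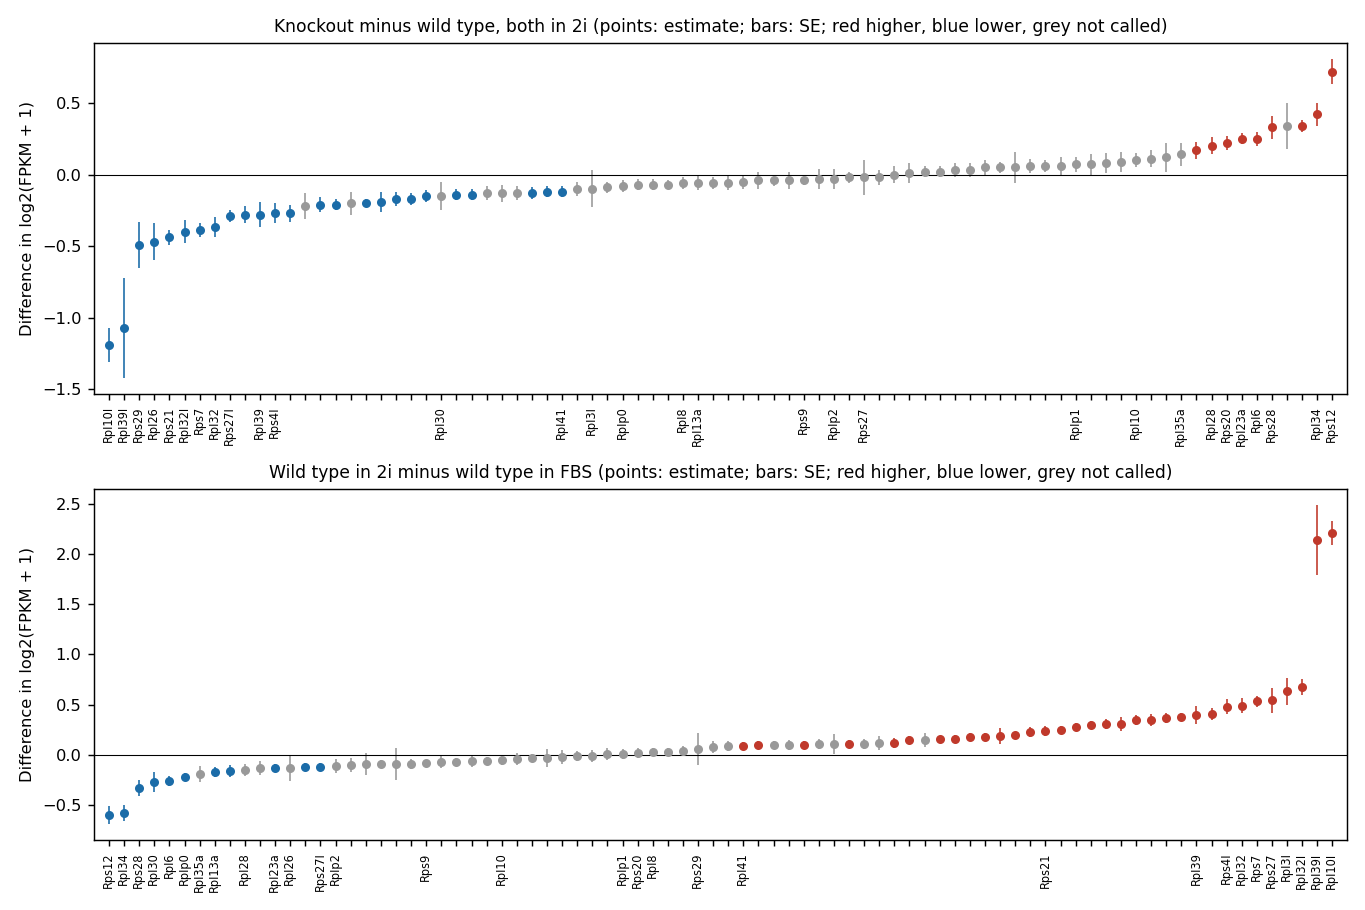
Difference in log2(FPKM + 1) of each of the 82 genes with its SE, ordered within each panel, with some genes labelled, for knockout minus wild-type 2i cells (top) and for wild-type 2i cells minus wild-type FBS cells (bottom). Red points are higher, blue lower and grey not called by limma at an adjusted p of 0.05. Most points lie within 0.3 of 0, and Rpl10l and Rpl39l lie apart from the rest in both panels.

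Rpl10l and Rpl39l had the largest differences of all members. Rpl10l (chr12:67384366-67385388, mm9), a retrogene of the X-linked Rpl10 whose product is added to the large subunit late in its maturation, was at 87.17, 91.12, 102.6 and 79.91 FPKM in wild-type 2i cells. The knockout libraries stood at 44.85, 40.64, 39.0 and 31.66 FPKM, which is 43.3% of the wild-type mean (log2 change -1.19, SE 0.12, adjusted p = 1.24e-05), and no library overlapped. Rpl10 itself was at 62.3 ± 4.28 and 66.9 ± 2.09 FPKM and did not pass (0.10, adjusted p = 0.142). Rpl10l thus stood at 132 to 153% of Rpl10 in wild-type 2i cells and at 49.0 to 67.4% in the knockout. All 50-base stretches of Rpl10 are shared with other genes, so its own level and this ratio are uncertain.

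Rpl39l (chr16:10170321-10175004, mm9), the autosomal relative of the X-linked tunnel protein gene Rpl39, was at 44.61, 27.42, 82.28 and 50.67 FPKM in wild-type 2i cells. It was at 24.97, 16.72, 26.09 and 22.18 FPKM in the knockout (log2 change -1.07, SE 0.35, adjusted p = 0.0247). The groups did not overlap, but the wild-type libraries ran from 27.42 FPKM in replicate 2 to 82.28 in replicate 3, and the call was lost without wild-type 2i replicate 3 (-0.81, adjusted p = 0.0632) or 4 (0.0531) or without knockout replicate 2 (0.0694). Rpl39 was lower as well, from 289.7 ± 32.1 to 237.5 ± 20.9 FPKM (log2 change -0.28, adjusted p = 0.0213).

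Of the other paralogs, Rps27l, which is known as a p53 target, fell from 316.9 ± 6.24 to 259.7 ± 9.31 FPKM (log2 change -0.29, adjusted p = 7.16e-05). Rps27, which shares all its stretches with other genes, did not pass at 8.71 ± 1.24 and 8.57 ± 1.01 FPKM. Rps4l, a copy of Rps4x on chromosome 6 that carries a non-coding RefSeq accession, fell from 625.0 ± 26.6 to 516.5 ± 11.9 FPKM (log2 change -0.27, adjusted p = 0.0047). The chromosome 6 offsets given for Rpl32 apply to it too. Rpl3l stood at 2.02 ± 0.469 and 1.803 ± 0.356 FPKM and did not pass (-0.10, adjusted p = 0.538).

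The second comparison is wild-type 2i cells against wild-type FBS cells. It uses the same 4 wild-type libraries in 2i as the first, so a high or low level in those libraries enters both. In 2i 33 members were higher and 11 lower, and 38 did not pass. These 44 are 53.7% of the members, where 72.4% of all genes tested were called. By direction, 40.2% of members were higher and 13.4% lower in 2i, against 37.1% and 35.3% of all genes. Among genes with a mean of at least 100 FPKM, 35.2% were higher and 39.4% lower. The median member difference was 0.084 with an interquartile range of 0.306, beside 0.014 and 0.690 over all genes. Of the 82 members, 62 (75.6%) differed by less than 0.3, beside 44.8% of all genes tested. With a mean of at least 100 FPKM, it was 78.0% of 50 members, beside 51.9% of all genes at that level. Of the small-subunit members 17 were higher and 4 lower, and of the large-subunit members 16 were higher and 7 lower. The groups did not overlap for 29 members that were higher (all genes, 32.0%) and 10 that were lower (all genes, 30.5%).

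Rps7 was at 65.65, 60.26, 60.31 and 54.27 FPKM in 2i and at 41.5, 40.93, 42.99 and 39.53 in FBS (log2 difference 0.53, SE 0.05, limma adjusted p = 1.55e-06). All libraries in 2i lay above those in FBS. Rps27 was at 8.71 ± 1.24 and 5.68 ± 1.00 FPKM (0.54, adjusted p = 0.00139). Nearly all of its level came from an entry with a non-coding RefSeq accession, at a mean of 7.57 FPKM over 12 libraries. The coding entry of Rps27 was at 0.082 FPKM. Rps27rt, a copy outside the rule, was at 6.34 ± 3.52 FPKM in 2i and 23.5 ± 4.74 in FBS. Whether Rps27 and Rps27rt share reads was not tested. Rps21 was at 1102 ± 76.3 and 930.1 ± 27.8 FPKM (0.24, adjusted p = 0.000619). Rpl32 was at 757.7 ± 93.1 FPKM in 2i and 537.9 ± 19.1 in FBS (0.49, adjusted p = 6.95e-05), where chromosome 6 genes had a median difference of 0.125.

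Fewer members were lower in 2i. Rps12 was at 8.24, 7.02, 7.58 and 8.64 FPKM in FBS, above all 4 libraries in 2i (log2 difference -0.60, SE 0.09, adjusted p = 3.55e-05). Rpl34 was at 28.35, 23.82, 26.72 and 28.96 FPKM in FBS (-0.58, SE 0.08, adjusted p = 2.27e-05), also without overlap. Rps28 (-0.33), Rpl6 (-0.26) and Rpl23a (-0.13) were lower too. The Rpl23a call was lost with quantile normalization (-0.07, adjusted p = 0.144). The stalk protein gene Rplp0 was at 565.4 ± 19.5 FPKM in 2i and 657.8 ± 8.16 in FBS (-0.22, adjusted p = 0.000326), while Rplp1 and Rplp2 did not pass.

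Rpl13a was called at -0.17 (adjusted p = 0.00715) with overlapping groups. Rpl30 was at 41.6 ± 0.413 FPKM in 2i and 51.0 ± 8.31 in FBS (-0.27, adjusted p = 0.0297), and this call was lost without either of replicates 1 and 2 in 2i or 1 and 4 in FBS (adjusted p from 0.054 to 0.0952). With the highest transcript entry alone in place of the sum, its difference was -0.51. The Rpl41 call (0.09, adjusted p = 0.0482) was lost without any of replicates 1, 2 and 3 in 2i or 1, 2 and 4 in FBS (adjusted p from 0.0638 to 0.136). Rps9, Rpl35a and Rpl28 did not pass at -0.08, -0.19 and -0.15. With the highest entry alone, Rpl35a passed at -0.71 (adjusted p = 0.000995). Rpl28 passed without replicate 1 or 2 in 2i or 2 in FBS (adjusted p from 0.0379 to 0.0499). Rps9 passed without replicate 3 in 2i (adjusted p = 0.0252).

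The 4 largest differences were those of the paralogs Rpl10l, Rpl39l, Rpl32l and Rpl3l, the last of which is described below. Rpl10l was at 15.75, 20.24, 16.54 and 22.77 FPKM in FBS, so its mean in 2i was 4.79-fold higher (log2 difference 2.21, SE 0.12, adjusted p = 8.51e-09). Its 3 groups did not overlap, and it stood at 24.2 to 34.7% of Rpl10 in FBS. Rpl39l was at 6.76, 5.73, 18.08 and 13.82 FPKM in FBS and 4.62-fold higher in 2i (2.14, SE 0.35, adjusted p = 0.000109). Rpl32l was at 349.2 ± 44.6 FPKM in 2i and 217.1 ± 9.58 in FBS (0.67, adjusted p = 1.14e-05), and Rps4l at 625.0 ± 26.6 and 451.0 ± 47.1 (0.48, adjusted p = 2.57e-05).

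Rpl3l was at 2.66, 1.53, 1.91 and 1.98 FPKM in 2i and at 1.09, 0.611, 1.12 and 0.972 in FBS (log2 difference 0.63, SE 0.13, adjusted p = 0.000652). The groups did not overlap, although all values were near the filter, and the size depended on the pseudocount (1.02 with 0.1) and on summing entries (0.39 with the highest entry). Rps27l differed from the others in direction, at 316.9 ± 6.24 FPKM in 2i and 345.1 ± 10.1 in FBS (-0.12, adjusted p = 0.00959).

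**Figure D5:**
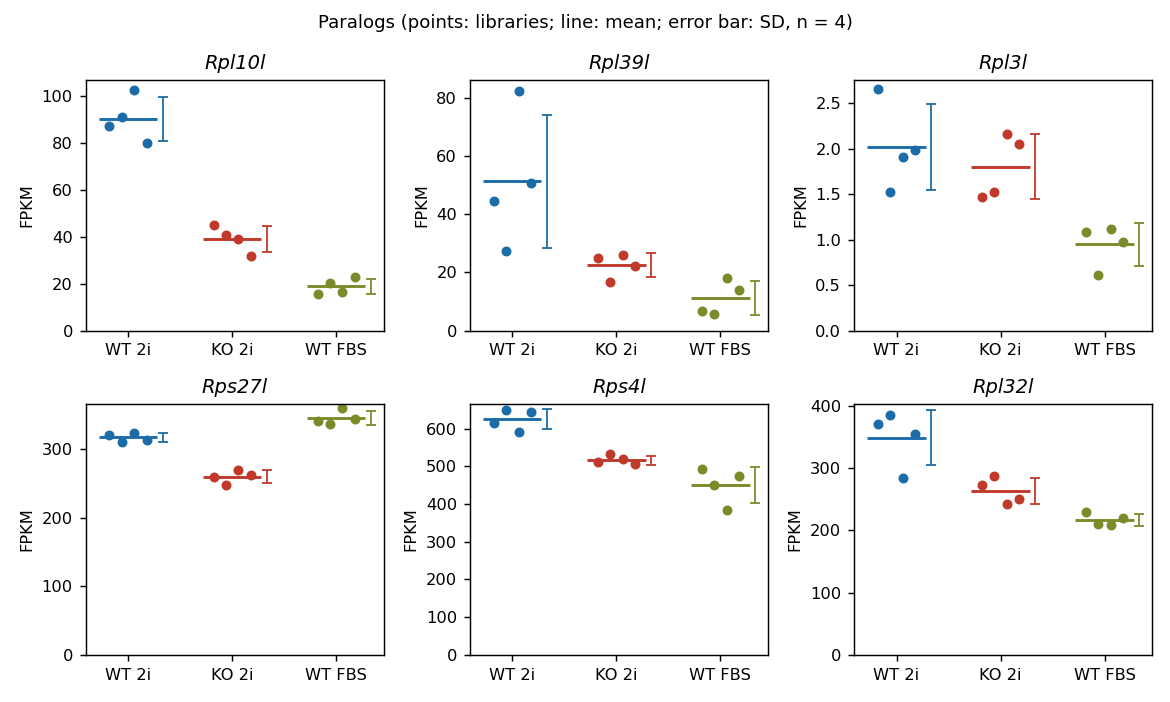
FPKM of the 6 paralogs in each library (points), with the group mean (line) and SD (error bar, n = 4), for wild-type 2i cells, knockout 2i cells and wild-type FBS cells. Rpl10l falls into 3 separate bands of 79.91 to 102.6, 31.66 to 44.85 and 15.75 to 22.77 FPKM, and Rpl39l is spread widely in wild-type 2i cells.

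A ratio of a paralog to its partner within a library does not depend on how libraries were scaled, apart from the pseudocount. For 8 pairs and both comparisons, 16 exact two-sided permutation tests were made on log2 ratios, and 8 of them reached p = 0.0286, the smallest that 70 splits of 4 against 4 libraries allow. After Benjamini-Hochberg adjustment, with 8 of 16 tests at that smallest value, it is 0.0571, so none of the 16 passed 0.05. The ratio of Rpl10l to Rpl10 differed by -1.30 in the knockout and by 2.26 between 2i and FBS, each without overlap. Rpl39l to Rpl39 differed by -0.78 in the knockout, with overlapping groups (exact permutation p = 0.114), and by 1.74 between 2i and FBS, without overlap.

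Outside the rule, Rpl22l1 with its partner Rpl22 showed a further pattern. Rpl22l1 stood at 26.4 to 28.8% of Rpl22 in wild-type 2i cells, 25.6 to 29.5% in the knockout and 43.5 to 46.6% in FBS. The log2 ratio differed by -0.71 between 2i and FBS (exact permutation p = 0.0286, adjusted 0.0571). Rps27l to Rps27 differed by -0.67 in that comparison, and Rps4l to Rps4x by -0.26 in the knockout and 0.29 between 2i and FBS, all without overlap. The level of Rps27 in this ratio is nearly all that of its non-coding entry. Rpl36al to Rpl36a and Rpl7l1 to Rpl7 had overlapping groups in both comparisons.

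The members' length, transcript start and shared sequence were set beside their changes. Members are short, with a median coding length of 459 bases against 1338 for all genes tested, and FPKM are divided by length. Under 500 bases, 1086 other genes had a median change of -0.046 in the knockout and of 0.075 between 2i and FBS, beside -0.066 and 0.018 for the 48 members of that length. Of the 14 members with a C and 4 pyrimidines at a start, 1 was higher and 5 lower in the knockout, and 6 were higher and none lower in 2i than in FBS by limma (2 were lower at an unadjusted p under 0.05). These 5 and 6 are 35.7% and 42.9% of the 14, where 30.5% of all members were lower in the knockout and 40.2% higher in 2i, and 21.4% and 37.1% of all genes. Of the 16 members with under 50% shared sequence, none was higher by limma (0 at an unadjusted p under 0.05) and 9 were lower in the knockout, and 10 were higher and 2 lower in 2i, with medians of -0.165 and 0.272. These 9 and 10 are 56.2% and 62.5% of the 16. Among the other 66 members, 13.6% were higher and 24.2% lower in the knockout, and 34.8% were higher and 13.6% lower in 2i. These splits describe the members and were not tested.

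Other ribosomal and translation genes, from lists chosen with earlier results known, gave the counts that follow. They are to be read beside all genes tested, of which 24.0% were higher and 21.4% lower in the knockout and 37.1% were higher and 35.3% lower in 2i. Of 7 ribosomal proteins that the naming rule leaves out, 3 were lower in the knockout, namely Fau, Rpl36al and Rpl22l1, and none was higher by limma (0 at an unadjusted p under 0.05). Between 2i and FBS, Rps3a1, Fau and Rack1 were higher in 2i and Rpl22l1 lower. Rack1, a scaffold protein on the small subunit, was at 1934 ± 80.1 FPKM in wild-type 2i cells, 1920 ± 15.7 in the knockout and 1719 ± 88.7 in FBS. Rpl7l1 passed in neither comparison. The Fau and Rpl22l1 calls in the knockout were lost without wild-type 2i replicates 1, 2 or 4 or knockout replicates 2 or 4, and that of Rpl22l1 also without knockout replicate 1. Both were also lost with TPM (adjusted p = 0.067 and 0.0686), and that of Rpl36al with quantile normalization (-0.09, adjusted p = 0.124).

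Among 14 TOP-bearing messengers that encode no ribosomal protein, 4 were higher and 1 lower in the knockout (median 0.04), and 2 were higher and 7 lower in 2i than in FBS (median -0.16). The 4 are 28.6% of the list, beside 24.0% of all genes higher in the knockout, and the 7 are 50.0%, beside 35.3% of all genes lower in 2i. Tpt1 was at 214.6 ± 11.3 FPKM in wild-type 2i cells, 259.9 ± 11.6 in the knockout and 319.0 ± 12.7 in FBS, and passed in both. Npm1, a nucleolar chaperone, stood at 316.0 ± 31.6, 363.8 ± 15.6 and 501.8 ± 14.2 FPKM. The elongation factor gene Eef1a1 did not pass (0.09 and 0.12), although the second did without wild-type 2i replicate 4 (adjusted p = 0.0314) or FBS replicate 3 (0.0056).

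Most ribosome biogenesis genes were lower in 2i than in FBS. Of 49 ribosome biogenesis genes, 2 were higher and 39 lower in 2i (median -0.31), and in the knockout 10 were higher and 3 lower (median 0.03). The 39 are 79.6% of the list, beside 35.3% of all genes, while the 10 are 20.4%, beside 24.0%. Heatr1, needed for early processing of ribosomal RNA, was at 18.1 ± 1.40 FPKM in 2i and 35.2 ± 3.16 in FBS (-0.92, adjusted p = 8.53e-08), and Gnl3 at 92.3 ± 4.53 and 135.6 ± 3.62. Of 29 initiation factors 6 were higher and 19 lower in 2i (median -0.23), and 9 were higher and 1 lower in the knockout (median 0.08). The 19 are 65.5% of the list, beside 35.3% of all genes lower in 2i, and the 9 are 31.0%, beside 24.0% higher in the knockout. Eif1ax, which helps find the start codon, was at 88.3 ± 0.566 FPKM in 2i and 155.0 ± 6.12 in FBS.

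Of 19 RNA polymerase I subunits and factors, 4 were higher and 6 lower in 2i, and 1 was higher and 3 lower in the knockout. In the knockout, Taf1b was higher and Polr2e, Polr2f and Polr2h were lower, while Polr1a, Polr1b, Polr1c, Polr1d and Polr1e did not pass. The 6 are 31.6% of the list, near the 35.3% of all genes lower in 2i, and the 3 are 15.8%, beside 21.4% lower in the knockout. Polr1c was at 79.6 ± 4.25 FPKM in 2i and 117.0 ± 2.11 in FBS. Among 21 regulators in the mTOR and Myc pathways, 4 were higher and 10 lower in 2i, and 7 were higher and 2 lower in the knockout. The 10 are 47.6% of the list, beside 35.3% of all genes, and the 7 are 33.3%, beside 24.0%. Mycn, which encodes a transcription factor that drives ribosome production, was at 25.7 ± 1.8 FPKM in wild-type 2i cells, 26.0 ± 1.64 in the knockout and 97.6 ± 6.59 in FBS (2i minus FBS -1.88, adjusted p = 1.33e-10). Larp1, which binds TOP starts, was at 34.5 ± 3.49, 47.7 ± 2.40 and 64.4 ± 1.40 FPKM and passed in both comparisons. Ddit4, an inhibitor of mTOR signalling, fell from 72.3 ± 11 to 36.2 ± 3.49 FPKM in the knockout (-0.97, adjusted p = 5.54e-05).

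The 75 proteins of the mitochondrial ribosome, a separate machine in the same cells, had 5 higher and 23 lower in the knockout (median -0.08), and 20 higher and 21 lower in 2i than in FBS (median -0.01). The 23 are 30.7% of the list, beside 21.4% of all genes lower in the knockout, and the 20 and 21 are 26.7% and 28.0%, beside 37.1% higher and 35.3% lower in 2i. Mrps2 was at 54.0 ± 0.858 FPKM in wild-type 2i cells, 41.7 ± 1.14 in the knockout and 32.2 ± 1.83 in FBS, and passed in both. Differences between these lists were not tested.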

How the data were processed

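TruSeq libraries were made from Trizol RNA, per the labels' protocols. Per the submitters' processing notes, CASAVA 1.8.2, Cufflinks and the build mm9 were used; for the aligner and the handling of multiply mapped reads, the sources used here say nothing. Deposited by the authors were FPKM per RefSeq transcript with bounds and, per the file headers, a status word for each estimate. The median half-width of the authors' bounds was 3.57 to 4.54% for member entries of at least 10 FPKM, but in 62 to 64 of those entries the upper bound was smaller than the value itself, by library. FPKM do not give the depth, and no count test was used.

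Symbols from RefSeq and GENCODE tables named 98.8% of 30761 entries, and 362 stayed under their accession. The 100 member entries were summed per symbol to 82 genes, none of them with a failed estimate; 7 symbols touched by 23 failed entries were left out. Coordinates of genes are mm9 as deposited; promoter windows are RefSeq GRCm38.p6, and coding lengths and 50-base stretches come from GENCODE vM21, since the protein table planned for lengths was not used. Coding length was found for 96.4% of genes tested and 96.3% of members.

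Genes reaching 1 FPKM in 4 or more of 12 libraries were tested on log2(FPKM + 1) with limma 3.58.1 (R 4.3.3), 1 mean per group, eBayes with a trend and Benjamini-Hochberg adjustment; adjusted p-values of genes are limma's throughout. Ratios were tested with exact permutation. Fits were tested on simulated data. Python 3.11.15, numpy 2.4.6, pandas 2.3.3, scipy 1.17.1 and matplotlib 3.10.9 were used. The members, gene lists and tests were chosen with earlier results of these data known. Genes are named by rule: paralogs, the 3 highest and lowest members, the 8 largest called rises and falls per comparison, members without overlap against the median's direction, all ribosomal proteins outside the pattern, and up to 3 genes per other list with the smallest adjusted p plus its highest member if not called; partners of paralogs are given beside them. Some genes that the rule takes are not reported here. Alternatives were other pseudocounts, filters, scalings and eBayes settings, entry choice, the replicate block, the 8 libraries of a comparison alone and leaving out each library.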

Additional observations from a re-analysis of the deposited data

Results flagged for a closer look

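In groups of 4 libraries, 4 of 93 groups checked held a library far from the other libraries of its group, and chance alone gives about 1 in 20. Rpl28 was at 21.3 FPKM in wild-type 2i replicate 3, below the other libraries of that group. Rps20 was at 853 FPKM in wild-type 2i replicate 4, below its group, and at 1160 FPKM in knockout replicate 1, above its group. Rps27 was at 7.06 FPKM in knockout replicate 2, below its group.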

How the results depend on the processing

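Over the alternatives other than leaving out a library, member calls numbered 30 to 36 in the knockout comparison (34 as reported) and 38 to 46 between 2i and FBS (44). Leaving out each library gave 28 to 35 and 37 to 48. With the replicate block, 33 and 42 members and 5567 and 8899 genes were called. Same-numbered libraries correlated in their deviations by 0.055 to 0.258 in the knockout comparison and by 0.027 to 0.186 between 2i and FBS. Differently numbered libraries correlated by -0.3 to 0.154 and by -0.206 to 0.114. Whether the shared numbers mark pairs was not tested, and the main fit used no pairing. With the 7 ribosomal proteins outside the naming rule added, the shares were 9.417, 9.272 and 8.898% in wild-type 2i cells, the knockout and FBS. The Rpl3l to Rpl3 ratio in the knockout (0.02) was -0.03 with a pseudocount of 0.1, 0.30 with the highest entry and -0.06 to 0.09 on leaving out libraries, and Rpl36al to Rpl36a between 2i and FBS (-0.07) was -0.12 to 0.03 on leaving out libraries. Of 60 differences of named members, 36 kept direction and call under every alternative run. Sign changes occurred in differences that were not called. In the knockout, TPM gave Rack1 0.02 and Rps27 0.01, scaling on other genes gave Rack1 0.01, quantile normalization gave Eif4ebp1 0.03, Eif5a 0.11 and Rpl8 0.02, and the highest entry gave Rpl30 0.02 and Rpl3l 0.18. Leaving out libraries gave Rps27 -0.09 to 0.06 and Mycn -0.03 to 0.05 there, and between 2i and FBS Mrpl28 -0.03 to 0.03, Polr2f -0.01 to 0.06, Rpl26 -0.22 to 0.01 and Rpl7l1 -0.08 to 0.04. The cause of these changes was not tested. Read depth is unknown, and Rpl3l, near 1 FPKM, is the least certain member.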
